A study of Mus musculus with 18 samples.

Results

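The genes of the interleukin-1 family and the inflammatory caspases considered here are Il1a, Il1b, Il18 and Il33 for the cytokines, Il1rn and Il1r2 for a natural antagonist and a decoy receptor, Il1r1 for the signalling receptor, Casp1 and Casp4 for the caspases, and Nlrp10 for a cytosolic NOD-like receptor family protein. A gene was followed through every probe set of the deposited value table that the array annotation pairs with that gene and no other. This found 1 probe set for each of 9 of the 10 genes, out of 19938 genes that have a probe set of their own. Il1r1 had no such probe set and was not analysed here.

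The study asked how deleting Trpa1 in keratin 14-expressing cells changes gene expression in skin and sensory ganglia, with 18 Affymetrix arrays in 6 groups of 3 biological replicates. CFA mutant epidermis and CFA control epidermis were peeled with dispase from the hindpaw 2 days after complete Freund's adjuvant (CFA), an oil emulsion with killed mycobacteria that inflames the paw. Naive mutant epidermis and naive control epidermis came from paws that received nothing, and naive mutant DRG and naive control DRG are lumbar dorsal root ganglia, where the cell bodies of sensory neurons lie. Mutant mice were K14Cre-Trpa1 fl/fl, in which loxP sites surround the exons for the channel pore, and control mice were K14Cre-Trpa1 +/+, which the labels call wild type. All mice thus carry a Cre that the keratin 14 promoter drives in keratinocytes and other ectodermal cells and not in sensory neurons. They were adult males of at least 7 weeks on a mixed C57BL/6, CBA and Swiss Webster background. Control and mutant mice came from colonies bred apart, so genotype and colony cannot be told apart. No array came from a vehicle-injected paw, so CFA stands against naive tissue and the injection itself was not separated from the adjuvant.

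Interleukin-1 alpha and interleukin-33 are made in keratinocytes and other barrier cells as alarm cytokines that act when a damaged cell releases them, whereas interleukin-1 beta and interleukin-18 are made as inactive precursors. Caspase-1 cuts these precursors inside inflammasomes, and mouse caspase-4, also called caspase-11, binds bacterial lipopolysaccharide in the cytosol and opens gasdermin D pores. The receptor antagonist encoded by Il1rn and the decoy receptor encoded by Il1r2 restrain the response, and NLRP10 belongs to the NOD-like receptor family that includes inflammasome sensors.

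Values are log2 signals of a probe set. Skin and ganglia are not expected to express chemosensory receptors, so the background of an array was set at the level that 95% of 1218 such probe sets stayed under, and it lay between 4.58 and 4.79 in epidermis and between 5.77 and 5.92 in DRG. Array medians lay between 5.37 and 5.48 in epidermis and between 6.51 and 6.58 in DRG, so levels were not tested between the tissues. Trpa1 itself was above background on all 6 DRG arrays, at 8.61 ± 0.21 in mutant and 8.99 ± 0.10 in control mice (mean log2 signal ± SD, n = 3 each), and below it on all 12 epidermal arrays, so the epidermal arrays hold no check of the deletion. The DRG groups did not overlap, but their difference did not pass the limma test described below (log2 fold change -0.38, adjusted p = 0.482). Keratinocyte markers were above background on every epidermal array (10 of 10), and sensory neuron markers on every DRG array (9 of 9). In all comparisons limma was used on the arrays of the groups compared, and a probe set was called at an adjusted p under 0.05 after Benjamini-Hochberg adjustment over 23410 probe sets.

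The promoters of 4 of these genes are shown because the comparisons turn on them: Casp4, which separated the genotypes, its neighbour Casp1, which did not pass the test, and Il18 and Il1a, which had the largest falls after CFA. Each window runs 5′ to 3′ from 250 bases before to 50 bases after the start site, from RefSeq on GRCm38.p6, and the first window is used where a gene has several. Capitals mark matches to the NF-kB consensus in Casp4 and to TGANTCA, an AP-1 motif, in Il1a.
Casp4, chr9:5308599-5308898, plus strand: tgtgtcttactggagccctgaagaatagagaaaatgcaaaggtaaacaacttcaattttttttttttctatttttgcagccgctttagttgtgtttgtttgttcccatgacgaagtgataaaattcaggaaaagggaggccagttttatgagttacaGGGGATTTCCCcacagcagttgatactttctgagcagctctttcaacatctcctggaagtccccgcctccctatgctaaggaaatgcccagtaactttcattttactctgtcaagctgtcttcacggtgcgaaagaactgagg
Casp1, chr9:5298267-5298566, plus strand: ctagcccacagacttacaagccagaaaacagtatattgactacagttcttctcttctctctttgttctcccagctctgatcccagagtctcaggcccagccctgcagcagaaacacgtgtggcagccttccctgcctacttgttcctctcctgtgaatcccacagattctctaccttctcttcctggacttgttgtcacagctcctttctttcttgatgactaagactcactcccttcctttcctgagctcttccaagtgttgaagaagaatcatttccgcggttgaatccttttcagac
Il18, chr9:50554450-50554749, plus strand: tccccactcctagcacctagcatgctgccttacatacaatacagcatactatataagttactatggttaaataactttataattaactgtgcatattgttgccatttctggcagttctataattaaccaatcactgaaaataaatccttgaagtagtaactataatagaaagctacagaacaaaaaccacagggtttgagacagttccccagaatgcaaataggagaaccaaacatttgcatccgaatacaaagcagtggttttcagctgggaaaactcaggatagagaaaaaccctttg
Il1a, chr2:129309923-129310222, minus strand: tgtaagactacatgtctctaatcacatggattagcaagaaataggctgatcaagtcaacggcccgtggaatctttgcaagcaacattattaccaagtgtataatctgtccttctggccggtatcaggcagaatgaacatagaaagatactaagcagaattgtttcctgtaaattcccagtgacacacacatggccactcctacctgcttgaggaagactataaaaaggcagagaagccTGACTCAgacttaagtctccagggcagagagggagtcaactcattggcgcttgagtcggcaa

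Windows of 9 of the 10 genes, Nlrp10 being the exception, were searched on both strands for 5 motifs. The NF-kB consensus occurred in 4.51% of 32851 mouse promoter windows, and the Casp4 window held 3 overlapping matches, over both strands, between positions -93 and -83 relative to the start site. That consensus was taken up after the windows had been seen. The looser pattern GGGNNNNNCC, which overlaps it, was in 50.8% of windows and also matched Casp1 and Il1rn. Il1r1, which was not measured, matched both patterns at -232 to -223 in its second window. TGANTCA was in 7.81% of all windows and matched Il1a at positions -12 to -6 and Il1rn at -141 to -135 in its first window. TTCNNNGAA, a STAT-type motif, was in 8.3% of windows and matched Il1r2 at -111 to -103. GAAANNGAAA, an interferon-response motif, was in 3.44% of windows and matched none of the measured genes. The windows of Il18, Il1b and Il33 held none of the 5 motifs. A match describes letters in a window, not a bound site.

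**Figure D1:**
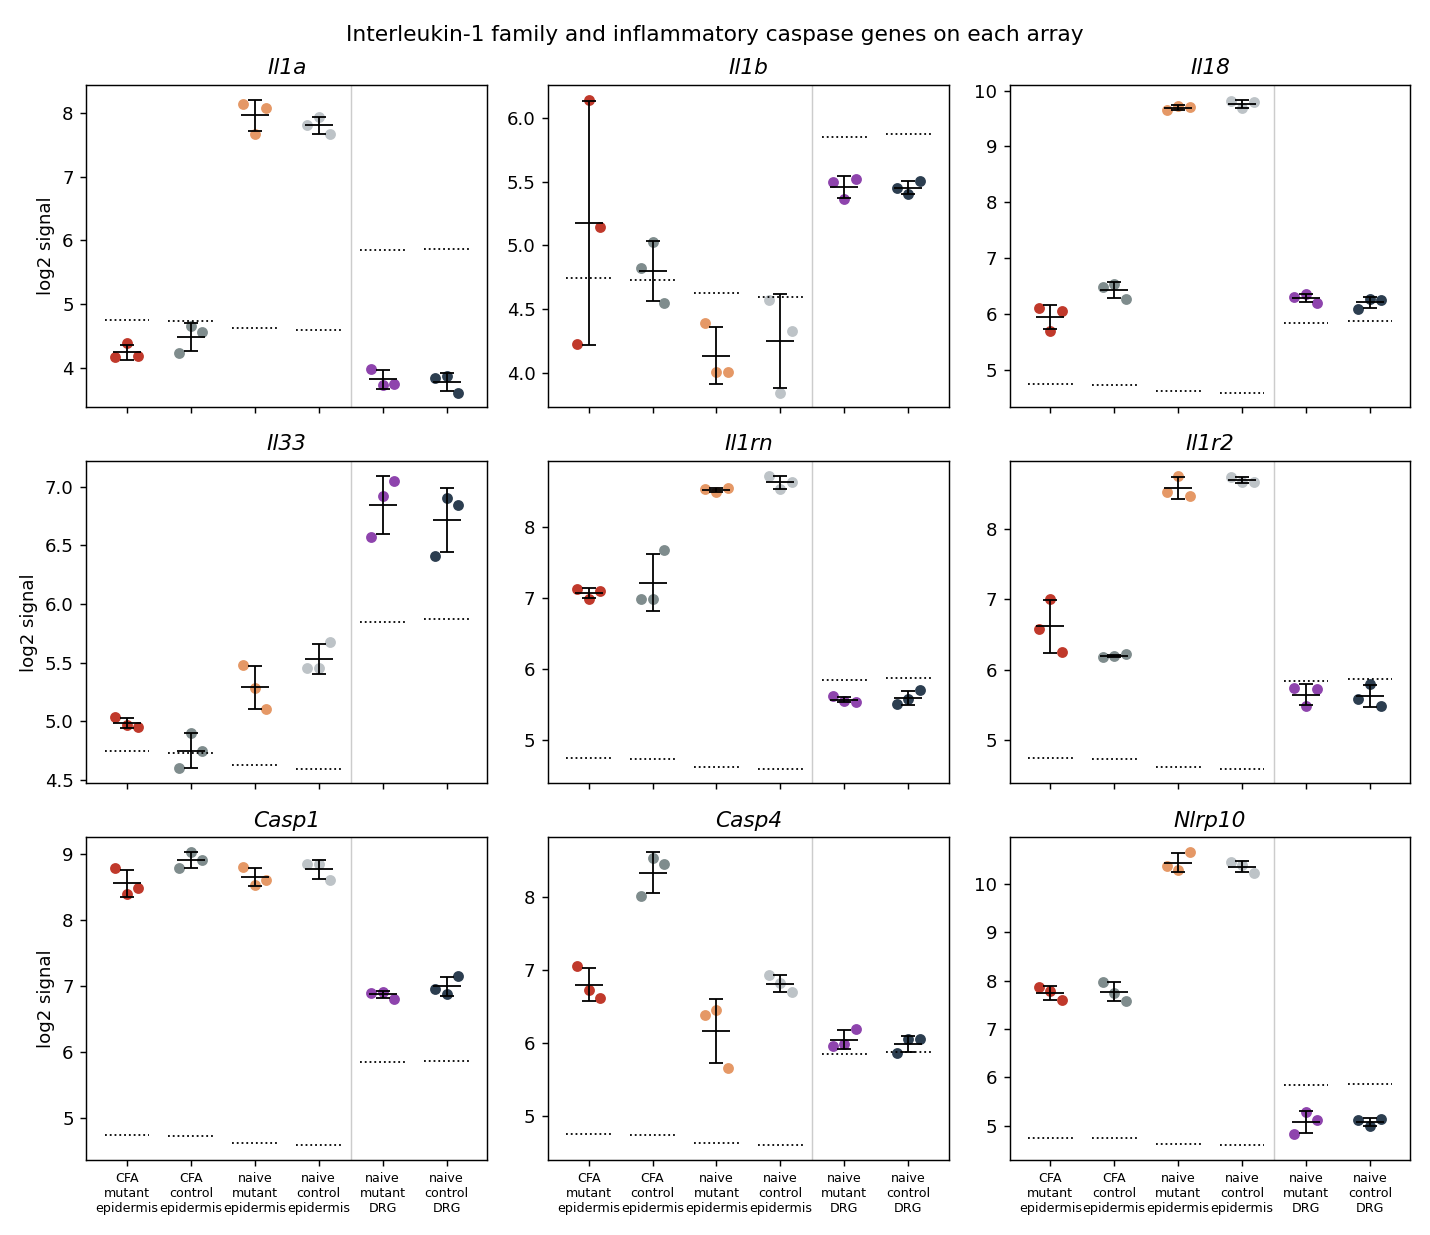
Log2 signal of 9 genes on each array, by group (points, arrays; horizontal bar and whiskers, mean and SD, n = 3; dotted line, mean background of the group). The y axes differ between genes and the vertical line separates epidermis from DRG, which was normalised apart. Il18, Il1a, Nlrp10, Il1r2 and Il1rn were lower on every CFA array than on every naive epidermal array, and Casp4 was highest on the 3 CFA control arrays.

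Most of these genes were lower in CFA than in naive epidermis. In mutant mice 5 of 9 were called, all lower, where 26% of all probe sets were called, 13.1% lower and 12.9% higher. In control mice 7 of 9 were called, 6 lower and 1 higher, where 26.3% of all probe sets were called, 14.8% lower and 11.5% higher. CFA and naive arrays did not overlap for 7 of the 9 genes in either genotype, as for 43.5% of all probe sets in mutant and 43.8% in control mice. The median log2 fold change of the 9 genes was -1.45 in mutant mice and -1.41 in control mice, against 0.04 and 0.03 for all probe sets tested in mutant and control mice. In whole tissue, fewer cells of a type and less RNA per cell cannot be told apart. The genes that fell are described first, the cytokines before their antagonists.

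Il18, whose precursor keratinocytes hold in resting skin, fell in both genotypes. Its log2 signal was 6.10, 5.70 and 6.05 in CFA mutant epidermis, against 9.65, 9.73 and 9.71 in naive mutant epidermis. In control mice it was 6.48, 6.55 and 6.28 after CFA, against 9.82, 9.68 and 9.80 in naive epidermis. Naive and CFA arrays were separated by more than the whole spread within any group, and Il18 stayed above background on all 12 epidermal arrays. The fall was 13.4-fold in mutant mice (log2 fold change -3.74 ± 0.11 SE, adjusted p = 2.59e-07) and 10.1-fold in control mice (log2 fold change -3.33 ± 0.10 SE, adjusted p = 2.16e-07).

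Il1a, the alarm cytokine of keratinocytes, fell out of the measurable range. The log2 signals were 4.16, 4.38 and 4.19 in CFA mutant epidermis, against 8.13, 7.68 and 8.07 in naive mutant epidermis. They were 4.23, 4.66 and 4.55 in CFA control epidermis, against 7.81, 7.93 and 7.67 in naive control epidermis. Every CFA array was below background for Il1a and every naive epidermal array was above it. With the background in place of the CFA value, Il1a was at least 9.30-fold lower in mutant mice (adjusted p = 5.09e-07) and at least 8.40-fold lower in control mice (adjusted p = 5.83e-07).

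Il1b, made mainly by activated myeloid cells, was at the edge of detection in the epidermis. It measured 4.23, 6.14 and 5.15 in CFA mutant epidermis, against 4.40, 4.01 and 4.01 in naive mutant epidermis. It measured 4.82, 5.02 and 4.55 in CFA control epidermis, against 4.57, 3.85 and 4.33 in naive control epidermis. It was below background on all 6 naive arrays and above it on 2 of 3 CFA arrays of each genotype, and CFA and naive ranges overlapped in both genotypes. The CFA difference did not pass the test in mutant mice (log2 fold change 1.04 ± 0.40 SE, 95% interval 0.13 to 1.94, adjusted p = 0.0882) or in control mice (log2 fold change 0.55 ± 0.18 SE, 95% interval 0.13 to 0.97, adjusted p = 0.0561). Taken against background, the CFA means were at least 1.46-fold higher in mutant mice and at least 1.15-fold higher in control mice. Single arrays moved both values. With 1 array left out at a time the mutant log2 fold change lay between 0.55, without CFA mutant replicate 2 (adjusted p = 0.184), and 1.51, without CFA mutant replicate 1 (adjusted p = 0.00911), and the other 4 omissions did not pass. The control value lay between 0.35, without naive control replicate 2 (adjusted p = 0.155), and 0.71, without naive control replicate 1 (adjusted p = 0.0274), and also passed without CFA control replicate 3 (adjusted p = 0.0444).

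Il33, a nuclear alarm cytokine of barrier cells, had low signals in the epidermis. It had log2 signals of 5.04, 4.97 and 4.95 in CFA mutant epidermis, against 5.48, 5.28 and 5.11 in naive mutant epidermis. It had 4.60, 4.90 and 4.74 in CFA control epidermis, against 5.46, 5.45 and 5.68 in naive control epidermis. The CFA arrays lay below the naive arrays in both genotypes without overlap, and 1 CFA control array was below background. The difference passed the test in control mice, where Il33 fell 1.72-fold (log2 fold change -0.78 ± 0.11 SE, adjusted p = 0.000762), and was -0.30 in mutant mice (SE 0.10, adjusted p = 0.0578). The mutant value passed without naive mutant replicate 3 (log2 fold change -0.39, adjusted p = 0.0284). The difference between the genotypes in this response was 0.48 on the log2 scale (95% interval 0.15 to 0.81) and did not pass over all probe sets (adjusted p = 0.405).

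Both restraints on interleukin-1 fell. Il1r2, the decoy receptor that binds interleukin-1 without signalling, had 6.59, 7.01 and 6.26 in CFA mutant epidermis, against 8.52, 8.75 and 8.47 in naive mutant epidermis. It had 6.19, 6.19 and 6.22 in CFA control epidermis, against 8.74, 8.67 and 8.66 in naive control epidermis. The 3 CFA control arrays agreed closely while the CFA mutant arrays spread by more. Il1r2 was 3.90-fold lower after CFA in mutant mice (log2 fold change -1.96 ± 0.17 SE, adjusted p = 1.17e-04) and 5.63-fold lower in control mice (log2 fold change -2.49 ± 0.08 SE, adjusted p = 2.16e-07).

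Il1rn, which encodes the antagonist that occupies the interleukin-1 receptor, had 7.13, 6.98 and 7.09 in CFA mutant epidermis, against 8.53, 8.48 and 8.54 in naive mutant epidermis. It had 6.98, 6.98 and 7.67 in CFA control epidermis, against 8.71, 8.53 and 8.63 in naive control epidermis. No CFA array reached the naive range. The fall was 2.73-fold in mutant mice (log2 fold change -1.45 ± 0.07 SE, adjusted p = 4.86e-06) and 2.66-fold in control mice (log2 fold change -1.41 ± 0.18 SE, adjusted p = 0.000388).

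Nlrp10, a NOD-like receptor family gene whose product lacks the leucine-rich repeats of its relatives, also fell in both genotypes. Its log2 signal was 7.87, 7.79 and 7.59 in CFA mutant epidermis, against 10.38, 10.28 and 10.66 in naive mutant epidermis. It was 7.97, 7.75 and 7.58 in CFA control epidermis, against 10.45, 10.39 and 10.24 in naive control epidermis. CFA and naive arrays were far apart in both genotypes. The fall was 6.45-fold in mutant mice (log2 fold change -2.69 ± 0.12 SE, adjusted p = 2.06e-06) and 6.03-fold in control mice (log2 fold change -2.59 ± 0.12 SE, adjusted p = 1.07e-06).

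Of 10 keratinocyte markers, 5 were called higher and 2 lower after CFA in mutant mice, and 3 higher and 2 lower in control mice, with a median log2 fold change of 0.09 and 0.08. Of all probe sets, 26% were called in mutant mice (12.9% higher, 13.1% lower) and 26.3% in control mice (11.5% higher, 14.8% lower). The mean level of the markers, in contrast, was lower after CFA. It lay between 11.63 and 11.76 in CFA mutant epidermis and between 11.64 and 11.79 in CFA control epidermis, against 11.89 to 11.92 in naive mutant epidermis and 11.82 to 11.84 in naive control epidermis. Krt14, a keratin of the basal layer, rose by 0.39 on the log2 scale after CFA in mutant mice and by 0.32 in control mice (adjusted p = 0.00575 and 0.0208). Col17a1 and Trp63 were called higher in both genotypes as well, Krt5 and Dsc3 in mutant mice, and Krt1, Krt10 and Krt2 in neither. The 2 that fell were Lor and Ivl. Lor, for the cornified envelope protein loricrin, had log2 fold changes of -2.52 and -1.63 in mutant and control mice (adjusted p = 4.03e-07 and 4.86e-04), and Ivl, for involucrin, -1.21 and -0.81 (adjusted p = 3.98e-05 and 0.00156). The part of these changes in the falls of Il18, Il1a, Nlrp10, Il1r2 and Il1rn was not tested.

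**Figure D2:**
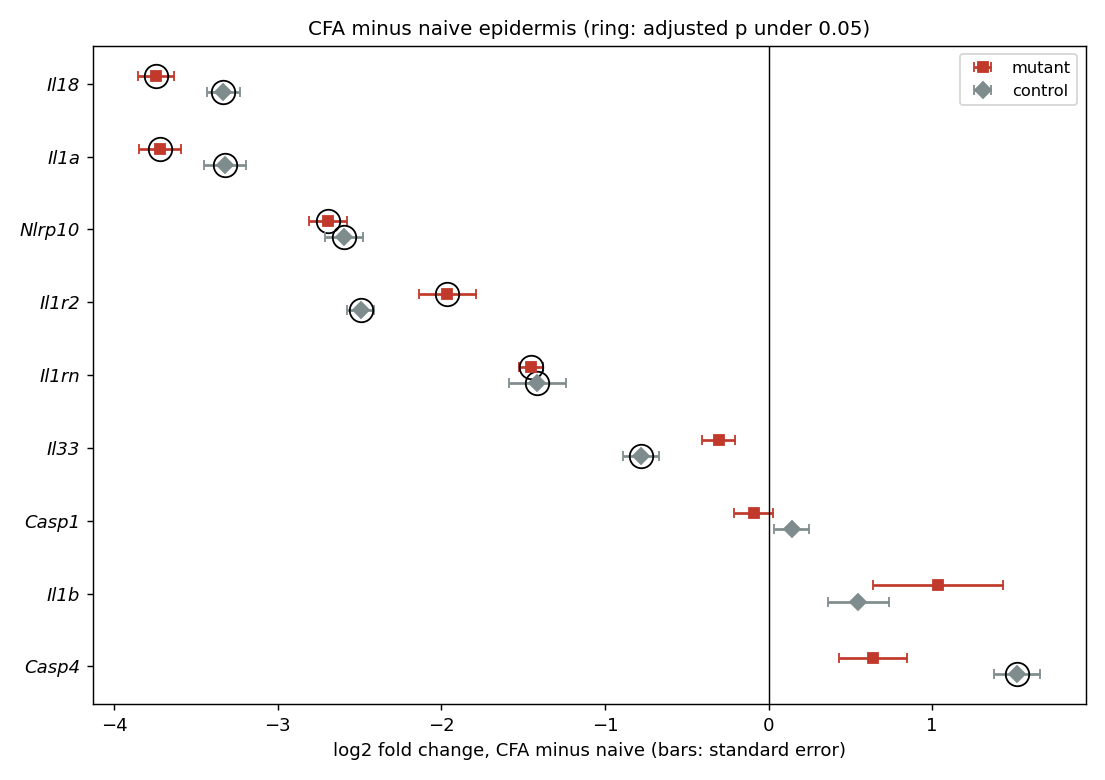
Log2 fold change of each gene between CFA and naive epidermis in mutant and control mice (bars, standard error; ring, adjusted p under 0.05; n = 3 arrays per group). Il18 and Il1a had the largest falls in both genotypes, Casp4 was called higher in control mice only, with the difference between genotypes not past the test (adjusted p = 0.403), and Il1a is drawn at its fitted value although its CFA arrays were below background.

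Neither caspase was called lower after CFA. Casp1, the inflammasome protease, had log2 signals of 8.79, 8.40 and 8.49 in CFA mutant epidermis, against 8.81, 8.54 and 8.61 in naive mutant epidermis. It had 8.79, 9.03 and 8.91 in CFA control epidermis, against 8.85, 8.85 and 8.60 in naive control epidermis. The ranges overlapped in both genotypes. The log2 fold change after CFA was -0.09 in mutant mice (95% interval -0.36 to 0.18, adjusted p = 0.612) and 0.14 in control mice (95% interval -0.10 to 0.38, adjusted p = 0.361).

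Casp4, the lipopolysaccharide-binding caspase, was the 1 gene of the 9 called higher after CFA. Its log2 signal was 7.05, 6.73 and 6.61 in CFA mutant epidermis, against 6.38, 6.44 and 5.65 in naive mutant epidermis. It was 8.0, 8.53 and 8.44 in CFA control epidermis, against 6.92, 6.81 and 6.69 in naive control epidermis. CFA arrays lay above naive arrays in both genotypes. The rise in control mice was 2.87-fold (log2 fold change 1.52 ± 0.14 SE, adjusted p = 6.66e-05). In mutant mice the log2 fold change was 0.64 (SE 0.21, 95% interval 0.16 to 1.11), and it did not pass the test (adjusted p = 0.0528). It passed without naive mutant replicate 2 (adjusted p = 0.0411).

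Between genotypes in CFA epidermis, Casp4 was the 1 gene of the 9 called, where 0.179% of all probe sets were called and 0.0982% were lower. It was 2.89-fold lower in CFA mutant epidermis than in CFA control epidermis (log2 fold change -1.53 ± 0.16 SE, 95% interval -1.89 to -1.18, adjusted p = 0.00703). The CFA mutant arrays, at 6.61 to 7.05, lay near the naive control arrays, at 6.69 to 6.92, and clear of the CFA control arrays, at 8.0 to 8.53. Leaving out any 1 of the 6 arrays kept the call, with log2 fold changes of -1.69 to -1.43 and adjusted p of 0.00686 to 0.0498. The call was lost when the unnamed probe sets were tested too (adjusted p = 0.112) and in an unmoderated linear model (adjusted p = 0.437), which called 0 of all probe sets in this comparison.

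In naive epidermis Casp4 was also lower on all 3 mutant arrays than on all 3 control arrays, with a log2 fold change of -0.65 (SE 0.20, 95% interval -1.10 to -0.19), but this did not pass over all probe sets (adjusted p = 0.475). None of the 9 genes was called there by limma, where 0.0299% of all probe sets were called, and Casp4 was the 1 with an unadjusted p under 0.05. Such p-values were found for 8.94% of all probe sets, and the genotype ranges did not overlap for 16.6%. An unmoderated linear model on the same arrays called 0 as well. In CFA epidermis that model called 0 of all probe sets between genotypes, so a 0 from it carries little weight. The difference between genotypes in the CFA response of Casp4 was -0.88 (SE 0.28, 95% interval -1.48 to -0.29, adjusted p = 0.403). None of the 9 was called in that comparison by limma, where 0.0256% of all probe sets were called, or by an unmoderated linear model, and 4 had an unadjusted p under 0.05, as did 8.26% of all probe sets.

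With Casp4, 5 genes had an unadjusted p under 0.05 in CFA epidermis, against 8.96% of all probe sets, and arrays of the genotypes that did not overlap, against 14.3%. The other 4 did not pass the adjusted test. For Casp1 the groups nearly touched, at 8.7867 on the highest mutant and 8.7871 on the lowest control array. For Il1r2 the lowest mutant array was at 6.26 and the highest control array at 6.22. Il18 was lower in mutant epidermis (log2 fold change -0.48, 95% interval -0.77 to -0.20, adjusted p = 0.254), as was Casp1 (-0.35, 95% interval -0.62 to -0.08, adjusted p = 0.416). Il1r2 was higher (0.42, 95% interval 0.05 to 0.79, adjusted p = 0.480), as was Il33 (0.24, 95% interval 0.0074 to 0.47, adjusted p = 0.543). Il1b was spread too widely for a direction, at 0.37 with a 95% interval of -0.47 to 1.22. Nlrp10 differed by -0.02 (95% interval -0.30 to 0.26) and Il1rn by -0.14 (95% interval -0.53 to 0.24), and Il1a was below background in both groups.

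**Figure D3:**
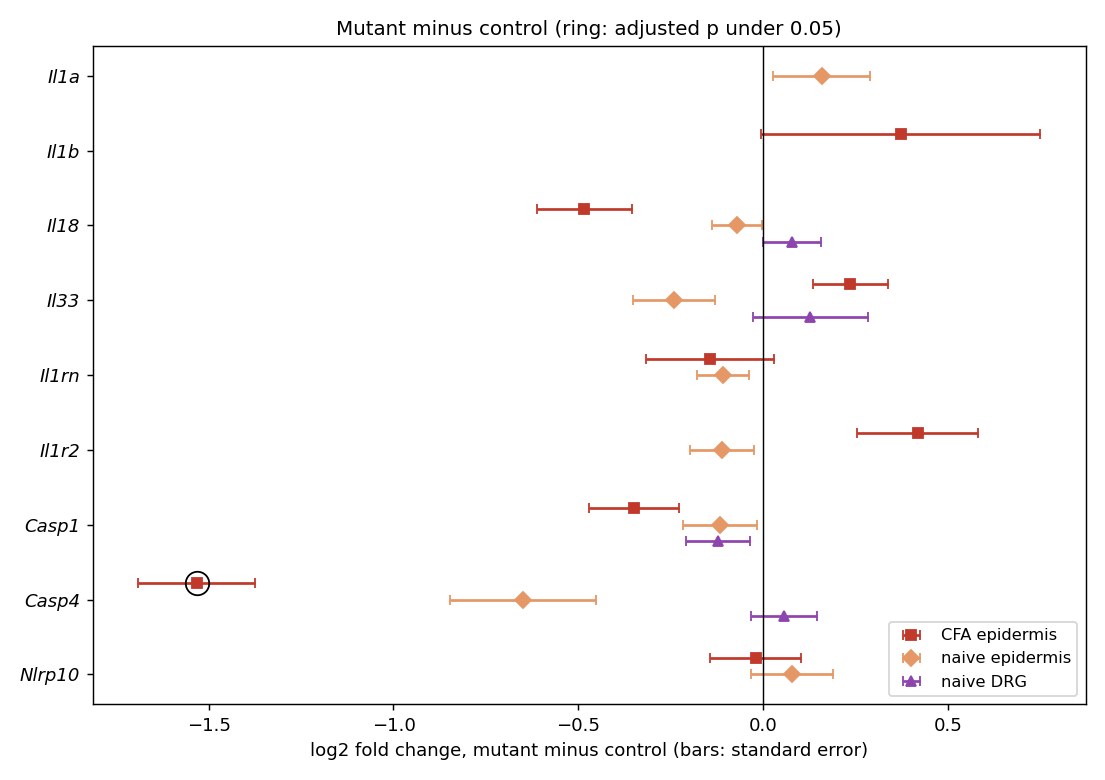
Log2 fold change of mutant over control in CFA epidermis, naive epidermis and naive DRG (bars, standard error; ring, adjusted p under 0.05; n = 3 arrays per group). Values are left out where both groups were below background on all arrays, and Casp4 in CFA epidermis, at -1.53, is the 1 value past the test.

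Immune cell markers were compared between the same groups. Of 11 monocyte and macrophage markers, 2 were called lower in CFA mutant than in CFA control epidermis, Csf1r for a growth factor receptor (log2 fold change -0.78, adjusted p = 0.0103) and Fcgr3 for an IgG receptor (log2 fold change -1.02, adjusted p = 0.0308). In the same comparison 0.179% of all probe sets were called and 0.0982% were lower. An unmoderated linear model, which called 0 of all probe sets there, called 0 of the 11 on this list. The mean of the list lay between 4.84 and 4.90 in CFA mutant epidermis and between 4.93 and 5.12 in CFA control epidermis, and Adgre1, Mrc1, Ccr2 and Cd163 were below background on all 12 epidermal arrays. Of 9 Langerhans and dendritic cell markers none was called by limma or by an unmoderated linear model, and 6 had an unadjusted p under 0.05, beside 8.96% of all probe sets. The mean of this list lay between 6.51 and 6.61 in CFA mutant epidermis and between 6.73 and 6.83 in CFA control epidermis. Cd207, which encodes langerin, had a log2 fold change of -0.70 there (adjusted p = 0.0873). The part of these cells in the lower Casp4 signal was not tested. Of 10 neutrophil markers, 6 (Ly6g, Csf3r, Ngp, Retnlg, Mmp8 and Ltf) were below background on all 12 epidermal arrays and 3 (Cxcr2, Mpo and Camp) were above it on all 12, and the mean of the list lay between 4.13 and 4.21 in CFA mutant epidermis and between 4.04 and 4.25 in CFA control epidermis.

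Casp1, Casp4 and Casp12 lie next to each other on chromosome 9 in the RefSeq annotation. Casp12, for a caspase of the same inflammatory group, rose after CFA by 0.89 on the log2 scale in mutant mice and by 1.41 in control mice (adjusted p = 0.0104 and 5.24e-05). Its signals were 6.76, 6.32 and 7.13 in CFA mutant epidermis, against 7.20, 7.61 and 7.27 in CFA control epidermis. The groups did not overlap, but the difference did not pass the test (log2 fold change -0.62, 95% interval -1.05 to -0.19, adjusted p = 0.341). Of the 3 neighbours, Casp4 was thus the 1 called between genotypes after CFA. Casp1 had a lower mean in CFA mutant epidermis too, without passing (log2 fold change -0.35, 95% interval -0.62 to -0.08, adjusted p = 0.416). In naive DRG Casp12 was also lower in mutant mice without overlap (log2 fold change -0.43, 95% interval -0.68 to -0.17), but did not pass (adjusted p = 0.434).

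The probe sets whose pattern over the 12 epidermal arrays was nearest to Casp4, each centred on its own mean, were Trim25, Nmi and Slfn8, with root mean square differences of 0.40, 0.41 and 0.41 on the log2 scale among 15725 compared. Trim25 encodes a ubiquitin ligase of antiviral RNA sensing, Nmi an interferon-inducible partner of STAT proteins, and Slfn8 a member of the Schlafen family. The log2 fold changes of Trim25 and Nmi after CFA were 0.70 and 0.54 in mutant mice. In control mice they were 1.5 and 1.39. Slfn8 was below background on every array of both mutant groups, so no fold is given there. It was also below background on every naive control array, and was at least 2.19-fold higher after CFA in control mice. Only probe sets above background on at least 3 epidermal arrays were compared, and Slfn8 met this through the 3 CFA control arrays alone. All 3 were chosen for this pattern, so these values describe it and are no test of it. For Il1b the nearest were Ccl3, Acod1 and Pde4d, with root mean square differences of 0.29, 0.36 and 0.37. Ccl3 encodes a chemokine and Acod1 the itaconate-producing enzyme of activated macrophages, and Pde4d a cyclic AMP phosphodiesterase. All 3 were, like Il1b, highest on CFA mutant replicate 2.

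**Figure D4:**
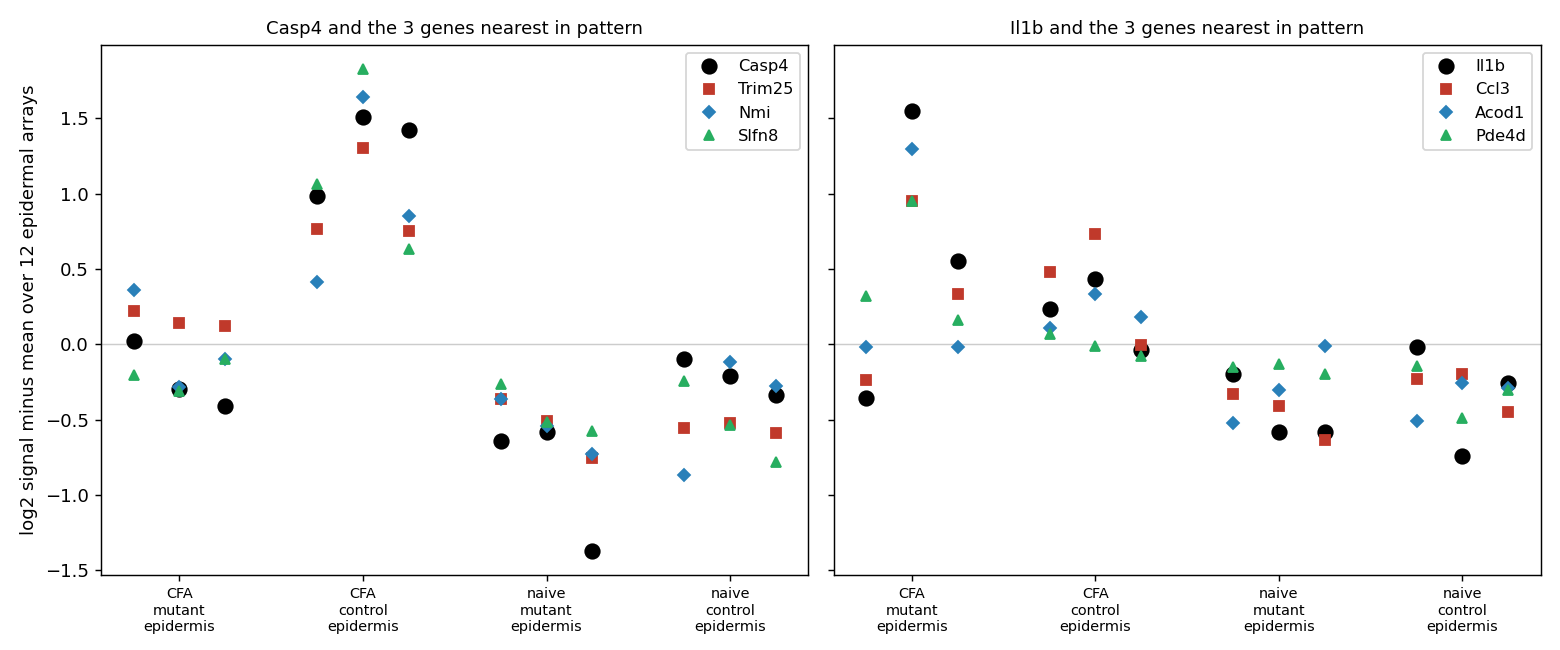
Log2 signal on each of 12 epidermal arrays after subtracting the mean of the gene over those arrays, for Casp4 (left) and Il1b (right) with the 3 probe sets nearest in pattern to each. Within a group the arrays stand side by side as replicates 1 to 3. The Casp4 panel is highest on the 3 CFA control arrays, and the Il1b panel on CFA mutant replicate 2.

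Other genes of the pathway were taken from 3 lists. Of 25 measured genes for other interleukin-1 family cytokines, receptors and signalling proteins, 4 were called higher and 13 lower after CFA in mutant mice, and 2 higher and 13 lower in control mice. The share called over all probe sets was 26% in mutant mice and 26.3% in control mice. The list's median log2 fold change was -0.29 in mutant mice and -0.31 in control mice, against 0.04 and 0.03 over all probe sets. The 4 genes called higher in mutant mice include Il18rap, which was below background on all 12 epidermal arrays. Il36b and Il36a, keratinocyte cytokines of the same family, had the largest falls of the list in both genotypes. Il36b had 6.01, 5.28 and 5.74 in CFA mutant epidermis, against 9.32, 9.25 and 9.32 in naive mutant epidermis, and log2 fold changes of -3.62 in mutant and -3.44 in control mice (adjusted p = 2.50e-06 and 2.16e-07). Il36a had -3.25 and -3.16 (adjusted p = 1.48e-06 and 6.21e-07). Il1f10, for interleukin-38, had -1.28 and -1.32 (adjusted p = 0.000875 and 9.36e-05), but was above background on only 1 of 3 CFA arrays of each genotype. Traf6, for a ubiquitin ligase below the interleukin-1 receptor, had -1.52 and -1.60 (adjusted p = 4.29e-06 and 2.23e-06).

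Of 27 measured genes of inflammasomes and pyroptosis, 5 were called higher and 4 lower in mutant mice, and 7 higher and 5 lower in control mice, with list medians of 0.09 and 0.17, where 26% and 26.3% of all probe sets were called. These counts include Gsdma2 in both genotypes and Nlrp1a in control mice, which were below background on all 12 epidermal arrays. The sensors Nlrp3, Nlrp1a, Nlrp1b, Nlrc4 and Aim2 were below background on all 12 epidermal arrays. Gsdma, for a pore-forming gasdermin of the epidermis, fell, with log2 fold changes of -2.74 in mutant and -2.41 in control mice (adjusted p = 3.57e-06 and 1.53e-05). Serpinb1a, for a protease inhibitor that restrains inflammatory caspases, rose by 1.78 and 2.29 (adjusted p = 0.0248 and 7.09e-05). Its signals spread widely in CFA mutant epidermis, at 7.72, 7.63 and 9.68, against 6.56, 6.75 and 6.38 in naive mutant epidermis. Irgb10, for an interferon-inducible GTPase that acts on bacteria upstream of inflammasomes, rose by 1.07 in control mice (adjusted p = 0.0468). Taken against background, its mean was at least 1.96-fold lower in CFA mutant than in CFA control epidermis without passing the test (adjusted p = 0.343). Irgb10 lay near background, above it on 6 of 12 epidermal arrays, and its CFA control signals spread over 5.77, 6.55 and 4.82.

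Of 20 genes that interleukin-1 is known to induce, 5 were called higher and 2 lower in mutant mice, and 4 higher and 2 lower in control mice, with list medians of 0.22 and 0.32. Over all probe sets 26% were called in mutant mice and 26.3% in control mice. Cxcl3, Cxcl5, Il6, Csf2, Saa3 and Tslp were below background on all 12 epidermal arrays. Lcn2, for the iron-sequestering lipocalin-2, rose by 4.0 on the log2 scale in mutant mice and by 3.98 in control mice (adjusted p = 0.00112 and 2.27e-06). Its signals were 9.93, 9.90 and 11.97 in CFA mutant epidermis, against 11.39, 11.37 and 12.14 in CFA control epidermis. In naive epidermis Lcn2 was lower in mutant than in control mice without overlap, but did not pass the test (log2 fold change -1.05, adjusted p = 0.448). Icam1, an adhesion molecule for leukocytes, rose by 1.47 and 1.85 (adjusted p = 1.98e-04 and 1.38e-06). Cxcl1, a neutrophil chemokine, rose by 0.92 and 1.26 (adjusted p = 0.00366 and 5.18e-04). Ptgs2, for the inducible cyclooxygenase, fell, with -2.11 and -4.40 (adjusted p = 0.00742 and 9.11e-07), and its naive signals were 6.60, 7.72 and 8.14 in mutant epidermis, against 9.66, 9.43 and 9.17 in control epidermis. That naive difference did not pass the test (log2 fold change -1.94, adjusted p = 0.242). Defb4 was also called lower after CFA in control mice, by at least 1.34-fold (adjusted p = 2.92e-05). Between genotypes 0 of the 72 genes of the 3 lists were called in CFA epidermis, naive epidermis or DRG. This held for limma and for an unmoderated linear model. Limma called 0.179%, 0.0299% and 0.0726% of all probe sets there, so a count of 0 is near those shares. Of the 72 genes, 8, 10 and 5 had an unadjusted p under 0.05, beside 8.96%, 8.94% and 7.15% of all probe sets. In CFA epidermis the unmoderated model called 0 of all probe sets.

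**Figure D5:**
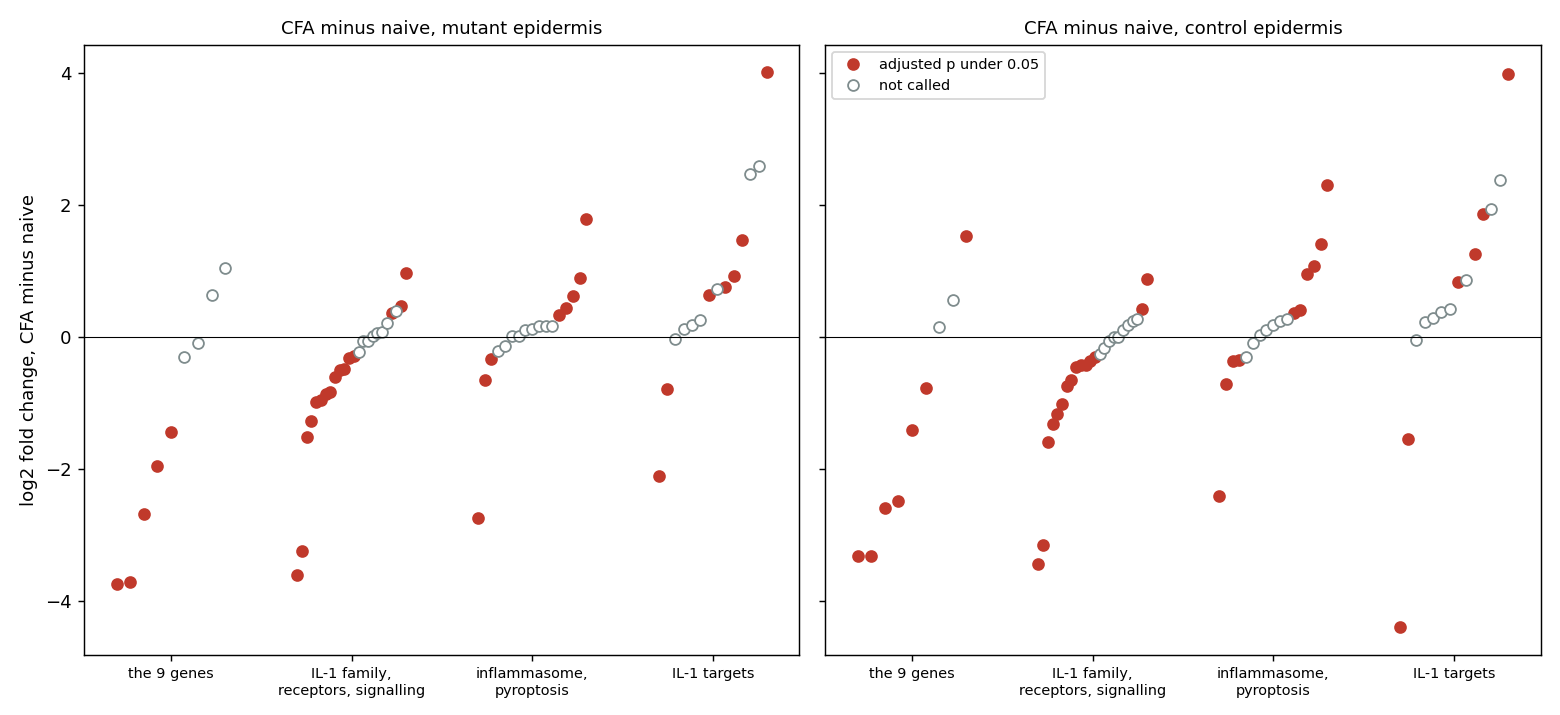
Log2 fold change between CFA and naive epidermis in mutant (left) and control (right) mice for the 9 genes and for the genes of 3 pathway lists that were above background on at least 1 epidermal array, sorted within each list (filled, adjusted p under 0.05; open, not called; n = 3 arrays per group). In both panels Il36b is the lowest gene of the interleukin-1 list, Gsdma of the inflammasome list and Ptgs2 of the target genes, and Lcn2 is the highest of all.

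In DRG, 4 of the 9 genes were above background on all 6 arrays, Il18, Il33, Casp1 and Casp4, and the other 5, Il1a, Il1b, Il1rn, Il1r2 and Nlrp10, were below it on all 6. Il33 had 6.57, 6.92 and 7.05 in naive mutant DRG, against 6.41, 6.91 and 6.84 in naive control DRG. Casp4 had 5.95, 5.99 and 6.18 in naive mutant DRG, against 5.86, 6.05 and 6.05 in naive control DRG, close above the background of 5.77 to 5.92. The groups overlapped for both. Casp1 lay between 6.81 and 6.92 in naive mutant DRG and between 6.88 and 7.16 in naive control DRG, and Il18 between 6.21 and 6.35 in naive mutant DRG and between 6.10 and 6.28 in naive control DRG. None of the 9 was called between genotypes by limma, where 0.0726% of all probe sets were called, 0 had an unadjusted p under 0.05 against 7.15% of all probe sets, and an unmoderated linear model called 0. The log2 fold change of Casp4 was 0.06 (95% interval -0.15 to 0.26), of Il33 0.13 (-0.23 to 0.48), of Casp1 -0.12 (-0.32 to 0.07) and of Il18 0.08 (-0.10 to 0.26). Keratinocyte transcripts were raised on mutant replicate 1 and control replicate 3, where the mean of the marker list reached 6.50 and 6.12, and without both arrays 0 of the 9 genes were called.

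Within the naive epidermis the genotypes overlapped for the 8 genes other than Casp4. Il33 had the next smallest p, with a log2 fold change of -0.24 (95% interval -0.50 to 0.015, adjusted p = 0.570), and Il1a was 0.16 (95% interval -0.14 to 0.46). The log2 fold changes of Il18, Il1rn, Il1r2 and Casp1 lay between -0.12 and -0.07, that of Nlrp10 was 0.08, and Il1b was below background in both groups. Over the 4 epidermal groups, the order of group means from low to high was for Casp4 naive mutant, CFA mutant, naive control and CFA control, and the CFA mutant and naive control ranges overlapped. For Il18 it was CFA mutant, CFA control, naive mutant and naive control, where the naive groups overlapped. For Il1r2 the order was CFA control, CFA mutant, naive mutant and naive control, where again only the naive groups overlapped.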

How the data were processed

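RNA of 18 samples, 100 ng each, was hybridised to Affymetrix Mouse Gene ST arrays. The values deposited by the authors are log2 signals from RMA (background subtraction, quantile normalisation and summarising of probes) in Partek software, and were used as they stand. No replicate is described as technical. Of 35556 probe sets, 23410 are paired with at least 1 gene and were tested, and genes are named from the 21789 paired with exactly 1. limma 3.58.1 in R 4.3.3 (lmFit, eBayes, two-sided, Benjamini-Hochberg) was fitted to the arrays of each comparison, and to 4 epidermal groups for the difference between responses. The same control arrays serve several comparisons. Where a group lay below background on all arrays, the fold is the brighter group's mean over that background, written as at least, and where both did, none is given. The number of arrays limits precision.

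The genes and lists were chosen with earlier results of these data known. Named pathway genes are up to 4 per list and comparison past the adjusted threshold, taken by size of change, or up to 2 with the smallest p where none passed, and for several probe sets the brightest stands for a gene. Of 78 pathway genes 72 were measured. The fits were tested on simulated data. Alternatives were further quantile normalisation, median centring, a filter on dim probe sets, testing unnamed probe sets too, moderation with trend and robust options, an unmoderated linear model, the 2-fold threshold of the methods, a block for replicate number, a fit of every group of a tissue, and each array left out. The methods name an ANOVA without giving its model, so the unmoderated model here need not be theirs. Promoters came from RefSeq (GRCm38.p6), whose build was used for nothing else but names and neighbours. Plots used Python 3.11.15 and matplotlib 3.10.9.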

Additional observations from a re-analysis of the deposited data

How the results depend on the processing

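The counts of genes called kept their direction and stayed within 1.5 times the reported count in 93 of 95 recomputations. The exceptions were both in CFA epidermis between genotypes, where 1 gene, Casp4, was called and 0 were when all 35556 probe sets were tested or when an unmoderated linear model was used. Leaving out each array gave 1 call there, 7 to 8 for CFA in control mice, 5 to 6 for CFA in mutant mice and 0 in the other comparisons. For single genes 718 recomputations kept direction and side of the threshold, 14 passed it only under the alternative, 3 lost it and 13 changed sign. All 13 sign changes were of differences between genotypes that did not pass the test, and came from leaving out 1 array. The log2 fold change then ranged over -0.0318 to 0.157 for Nlrp10 in naive epidermis, and in CFA epidermis over -0.113 to 0.0810 for Nlrp10, -0.261 to 0.0856 for Il1rn and -0.111 to 0.843 for Il1b. In DRG it ranged over -0.0279 to 0.265 for Il33 and -0.0143 to 0.101 for Casp4. For the difference in CFA response it ranged over -0.151 to 0.195 for Il1rn and -0.191 to 0.0121 for Nlrp10. Il33 in control mice fell short of the 2-fold threshold. Il33 in mutant mice passed with a further quantile normalisation, median centring or the filter on dim probe sets (adjusted p = 0.0411, 0.0461 and 0.0423). Casp4 after CFA in mutant mice passed with a further quantile normalisation, that filter or all epidermal groups in 1 fit (adjusted p = 0.0476, 0.0445 and 0.0291). Il1b passed in control mice with trend and robust moderation (adjusted p = 0.0455) and in mutant mice with all groups in 1 fit (adjusted p = 0.0442). The cause of these shifts was not tested.

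Replicate numbers were shared by the groups, but same-numbered arrays correlated between -0.24 and 0.23 in their deviations from group means, with 3 of 15 pairs over 0.1, so the numbers were not taken as pairing. With replicate number as a block the counts were 1 for genotype in CFA epidermis, 7 for CFA in control mice, 6 for CFA in mutant mice, with Casp4 added (adjusted p = 0.0186), and 0 elsewhere.

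Genes near background limit what the arrays show: Il1b was below it on 8 of 12 epidermal arrays and Casp4 in DRG lay close above it, and with 3 arrays per group the interval on the Il1b difference between genotypes after CFA was wider than the difference.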
